A study of Mus musculus with 6 samples.

Results

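The genes described here move acid and base across membranes in the stria vascularis, a tissue rich in capillaries that lines the outer wall of the cochlear duct and secretes potassium into endolymph. They were taken by exact gene symbol from the array annotation as Slc4a2, Slc4a3, Slc4a4, Slc4a7, Slc4a10, Slc4a11, Slc9a2, Slc16a1 and Slc16a3. Of these 9 genes 8 had a named probe set, and they had 15 of the 45037 probe sets that are not controls. The annotation used here names no probe set for Slc4a7, a sodium bicarbonate cotransporter, so it was not analysed here.

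The samples were 6 arrays of stria vascularis RNA from mice at postnatal day 10, which is before the onset of hearing. There were 3 arrays of mice heterozygous for Slc26a4 (replicates 1, 3 and 5) and 3 of Slc26a4 knockout mice (replicates 2, 4 and 6). Slc26a4 encodes pendrin, an anion exchanger that releases bicarbonate into endolymph. The heterozygous controls also lack a working copy of the gene, and no wild-type arrays were analysed here. The labels name no strain, sex or agent and do not say whether an array held RNA of single or pooled animals. P-values therefore measure the spread between these samples, which may in part be technical. The comparison asked whether the other carriers of acid and base differ in level when pendrin is missing.

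Bicarbonate is the main pH buffer outside cells, and its level in endolymph depends on transporters that work in series across the epithelium. Slc4 proteins exchange bicarbonate for chloride or carry it together with sodium, and Slc9 proteins exchange sodium for protons. Slc16 proteins carry lactate together with a proton and so export acid from cells that rely on glycolysis. The monocarboxylate carriers need a partner protein, basigin or embigin, to reach the surface.

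Starts of transcription are shown for the 4 members on which the results below turn, as listed by RefSeq on GRCm38.p6. Each run covers 250 bases before to 50 bases after a start, on the plus strand. Every GC box (GGGCGG or its reverse complement CCGCCC) is in capitals. They are chr1:75546212-75546511 for Slc4a3, chr5:88887010-88887309 and chr5:89027716-89028015 for the upstream and downstream starts of Slc4a4, chr2:62046265-62046564 for the upstream start of Slc4a10 and chr3:104638414-104638713 for Slc16a1.
Slc4a3: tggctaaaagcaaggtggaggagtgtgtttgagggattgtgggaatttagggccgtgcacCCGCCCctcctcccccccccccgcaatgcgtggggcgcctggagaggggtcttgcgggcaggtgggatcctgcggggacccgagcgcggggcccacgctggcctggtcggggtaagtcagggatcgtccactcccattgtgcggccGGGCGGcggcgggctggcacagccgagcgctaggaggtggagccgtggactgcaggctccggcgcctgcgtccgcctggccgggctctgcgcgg
Slc4a4 upstream start: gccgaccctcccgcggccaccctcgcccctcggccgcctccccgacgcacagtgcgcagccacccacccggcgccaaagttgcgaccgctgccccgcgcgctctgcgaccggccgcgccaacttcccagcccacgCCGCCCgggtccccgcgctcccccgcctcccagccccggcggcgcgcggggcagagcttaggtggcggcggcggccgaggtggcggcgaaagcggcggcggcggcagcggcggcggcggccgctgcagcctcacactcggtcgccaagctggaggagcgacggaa
Slc4a4 downstream start: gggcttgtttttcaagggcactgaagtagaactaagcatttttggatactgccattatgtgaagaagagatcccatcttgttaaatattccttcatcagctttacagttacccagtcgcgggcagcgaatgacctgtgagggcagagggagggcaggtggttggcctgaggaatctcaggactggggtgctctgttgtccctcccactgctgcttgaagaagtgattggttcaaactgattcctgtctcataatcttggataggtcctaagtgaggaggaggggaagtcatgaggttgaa
Slc4a10 upstream start: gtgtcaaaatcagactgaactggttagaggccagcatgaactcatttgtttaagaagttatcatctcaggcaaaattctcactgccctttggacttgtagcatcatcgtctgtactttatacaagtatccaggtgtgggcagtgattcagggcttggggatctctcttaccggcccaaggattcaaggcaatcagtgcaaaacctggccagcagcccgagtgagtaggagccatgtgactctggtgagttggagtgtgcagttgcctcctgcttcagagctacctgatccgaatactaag
Slc16a1: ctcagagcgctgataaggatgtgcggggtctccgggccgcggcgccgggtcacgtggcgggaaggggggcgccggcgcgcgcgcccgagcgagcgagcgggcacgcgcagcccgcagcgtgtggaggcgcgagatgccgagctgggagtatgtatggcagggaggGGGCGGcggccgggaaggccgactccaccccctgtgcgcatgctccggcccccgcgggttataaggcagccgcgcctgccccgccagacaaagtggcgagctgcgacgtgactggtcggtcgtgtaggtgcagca

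These windows differed widely in base composition. The upstream Slc4a4 window had a GC content of 80.0% with 50 CpG sites, and the downstream one had 48.3% with 3 CpG sites. Slc4a3 had 71.7% with 28 CpG sites, Slc16a1 had 73.7% with 42, and the upstream start of Slc4a10 had 48.3% with 4. The median over 32851 such windows was 52.7% with 7 CpG sites. A GC box on either strand occurred in 35.7% of all windows of this length. Slc4a3 held 2, and the upstream Slc4a4 and the Slc16a1 window 1 each. TATAAA on either strand occurred in 13.6% of all windows and, among those shown, once in that of Slc4a10. A match is a description of letters and not of binding. The table holds windows for 7 of the 9 members, and the other two, Slc4a11 and Slc9a2, are named only.

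The targeted gene was read first. Slc26a4 gave signals of 221, 248 and 1006 in heterozygous replicates 1, 3 and 5, and of 75.5, 106 and 154 in knockout replicates 2, 4 and 6. Every knockout sample lay below every heterozygous one. On the log2 scale the genotypes differed by -1.69 ± 0.50 (SE), with a limma adjusted p of 0.371, and -1.02 without heterozygous replicate 5, the highest array. Signal remained in the knockout samples, and the sources used here do not say whether the probe set lies in the disrupted sequence.

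Of the 15 probe sets 11 passed the filter on dim signals, which asked for a mean over all 6 arrays of at least 46.3. In the fit over 27022 probe sets (limma, Benjamini-Hochberg adjusted), none of the 11 passed an adjusted p of 0.05, where 1 probe set did in all (0.0037%). The lowest limma adjusted p of a member was 0.414. At an unadjusted limma p under 0.05 there were 2 of 11, Slc4a3 on the higher side and Slc4a4 on the lower. Among all tested probe sets with 1 gene symbol that p was reached by 5.36% on the higher and 2.68% on the lower side. Taking the brightest tested probe set for each of the 8 genes, 2 had higher and 6 lower means in knockout samples. Their median log2 difference was -0.07, against -0.04 over 12421 genes.

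**Figure D1:**
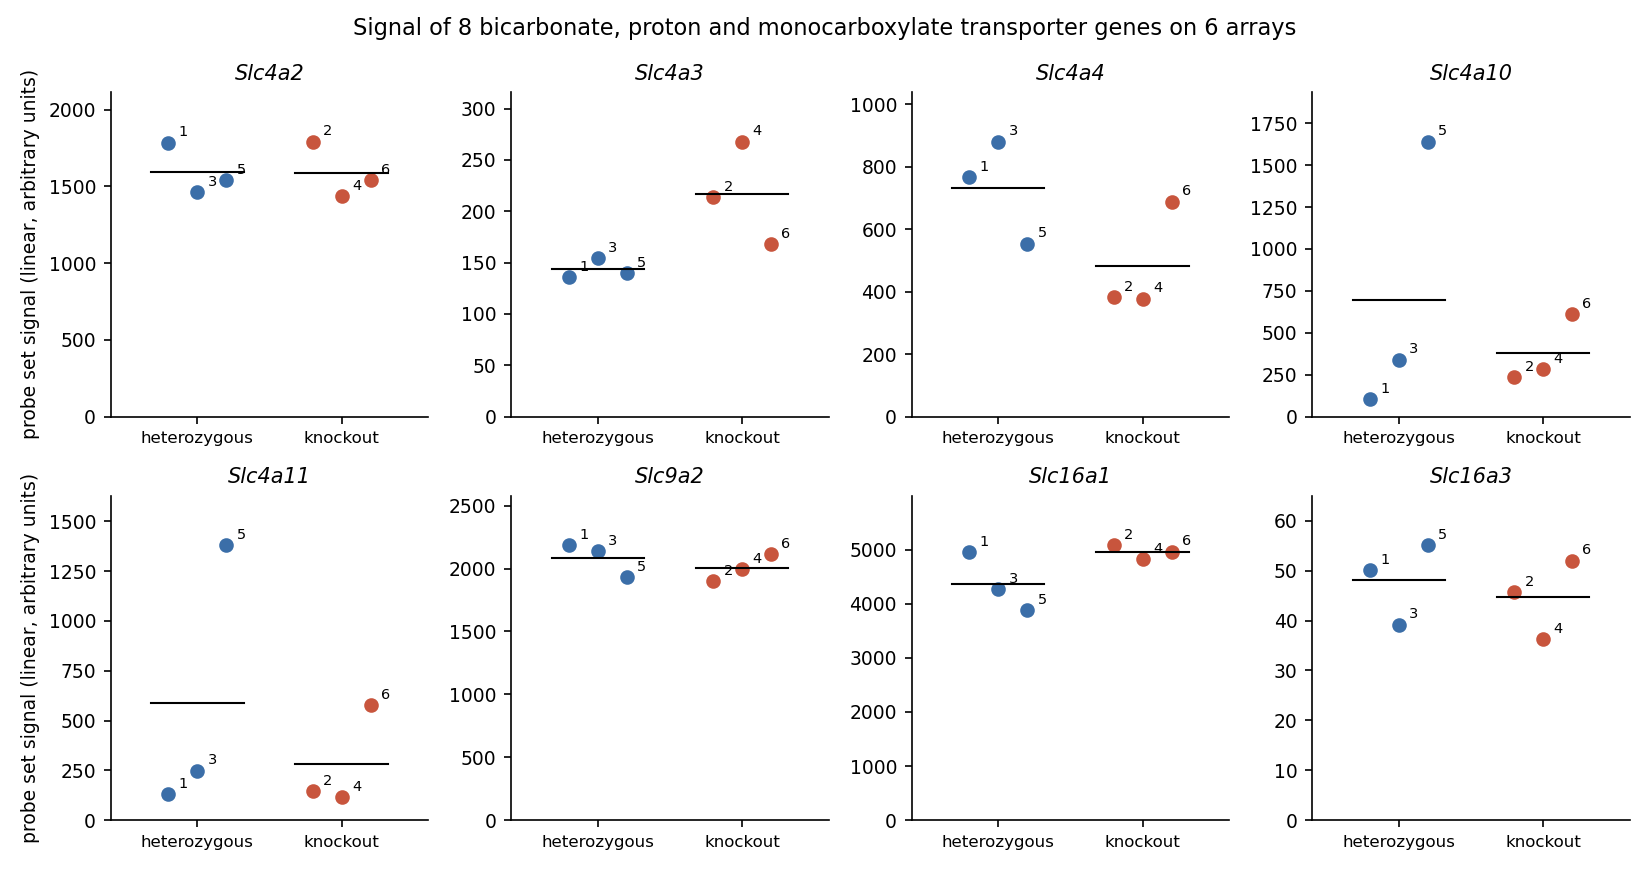
Signal (vertical axis, linear arbitrary units) of the brightest tested probe set of 8 genes on each array, with replicate numbers beside the points and a line at each genotype's mean (n = 3). Slc4a2 and Slc9a2 are level between genotypes, all knockout points of Slc4a3 lie above the heterozygous ones, and Slc4a10 and Slc4a11 spread widely within both genotypes.

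The anion exchangers came first by role. Slc4a2, also called AE2, brings chloride into cells in exchange for bicarbonate. Its heterozygous signals were 1786, 1465 and 1540 and its knockout signals 1793, 1435 and 1540. The groups overlapped fully, at 1597 ± 168 and 1589 ± 184 (SD, n = 3 each). The log2 difference was -0.01 with a 95% interval from -0.33 to 0.31 in limma. Its sign turned under several alternatives. The same exchanger serves acid secretion by osteoclasts. Of 12 genes of osteoclasts, bone and cartilage 9 were tested, 8 with higher means in knockout samples and 7 of these at an unadjusted limma p under 0.05, with a median log2 difference of 1.11 and none past the adjusted threshold. Their summed signal was 10572 to 12682 in heterozygous and 15908 to 20054 in knockout samples, and their part in the Slc4a2 value was not tested. Mmp9, a protease of osteoclasts, and Dmp1, a matrix protein of osteocytes, were higher in knockout samples by 2.19 and 1.11 on the log2 scale, each with a limma adjusted p of 0.371.

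Slc4a3, or AE3, does the same exchange and is known from heart and nerve cells. Its heterozygous signals were 136, 155 and 140.0, and its knockout signals 214, 268 and 168. Every knockout sample lay above every heterozygous one, and knockout replicate 4 was the highest. The means were 143 ± 9.75 and 217 ± 49.9 (SD, n = 3 each), a 1.44-fold difference. The log2 difference was 0.52 ± 0.23 (SE), with a limma adjusted p of 0.422 and an exact two-sided permutation p of 0.1, the smallest that 3 against 3 arrays allow. It was 0.37 without knockout replicate 4 and stayed between 0.32 and 0.68 over 18 alternatives. The dimmer probe set of Slc4a3, which did not pass the filter, read 24.6, 33.7 and 30.8 in heterozygous and 38.5, 58.2 and 34.9 in knockout samples, with the same array on top.

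Among tested members, the second probe set of Slc16a1 was the other without overlap, so there were 2 of 11 on the higher side and 0 on the lower. Over all tested probe sets with 1 gene symbol those shares were 7.85% and 6.42%.

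Next by role were the sodium-coupled carriers of the Slc4 family. Slc4a4, or NBCe1, moves sodium and bicarbonate together with net charge. Its brightest probe set read 766, 880.3 and 553 in heterozygous samples and 381, 378 and 688 in knockout samples. Knockout replicates 2 and 4 lay below every heterozygous sample, while knockout replicate 6 lay within the heterozygous range. The means were 733 ± 166 and 482 ± 178 (SD, n = 3 each). The log2 difference was -0.62 ± 0.27 (SE), with a limma adjusted p of 0.414 and an exact two-sided permutation p of 0.2. It lay below 0 in all 19 alternatives fitted to that probe set, from -0.90 without knockout replicate 6 to -0.48 without knockout replicate 4.

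The other tested probe sets of Slc4a4 had level means. The second brightest read 105, 114 and 89.7 in heterozygous and 123, 79.4 and 107 in knockout samples, a log2 difference of -0.01 (95% interval -0.56 to 0.54). The next read 59.7, 89.6 and 54.0 against 52.9, 78.1 and 73.4, a log2 difference of 0.02 (95% interval -0.59 to 0.63). Whether probe sets of Slc4a4 differ from each other in this respect was not tested. The remaining pair did not pass the filter, with signals of 27.6 to 66.1 on one and 1.90 to 13.2 on the other. With the mean of its tested probe sets, the log2 difference of Slc4a4 was -0.20. RefSeq lists separate starts for Slc4a4, whose CpG-rich and CpG-poor windows are given above. The sources used here do not place the probe sets along its transcripts, and the use of each start was not measured.

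**Figure D2:**
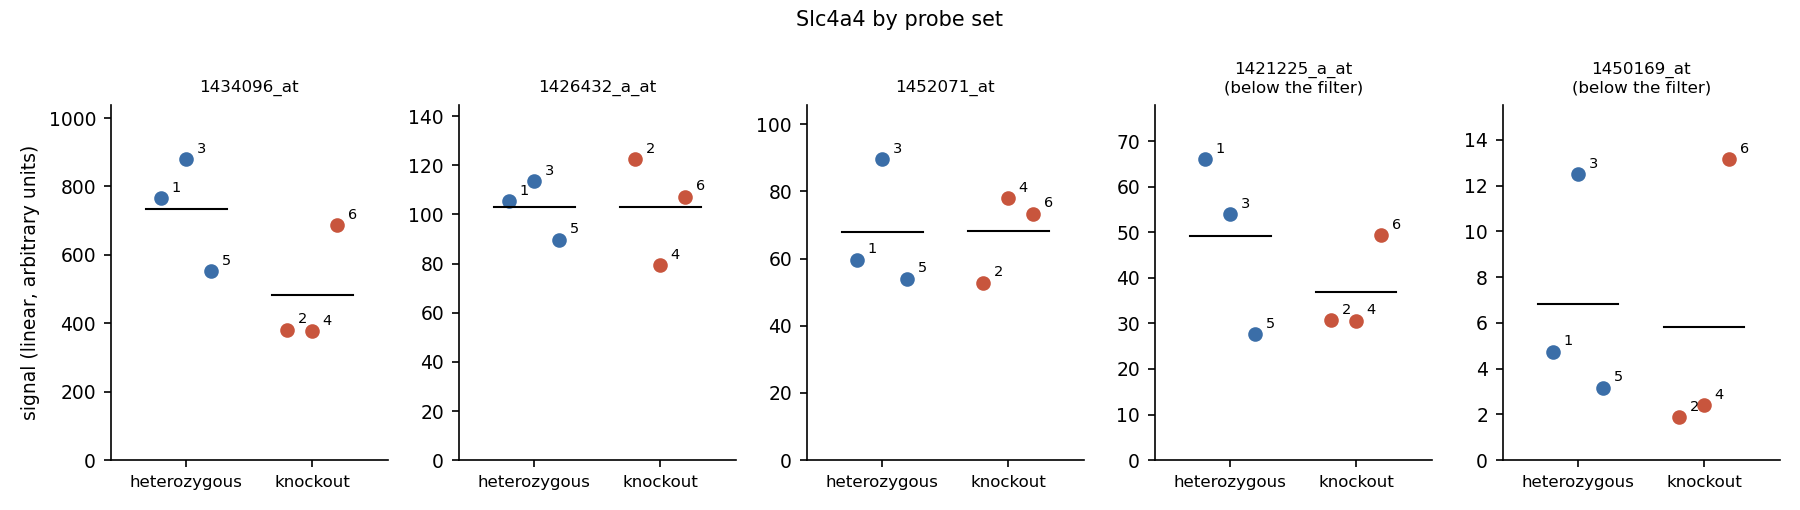
Signal (vertical axes, linear arbitrary units, a separate scale for each panel) of the 5 probe sets of Slc4a4 on each array, with replicate numbers and a line at each genotype's mean (n = 3). On the brightest, knockout replicates 2 and 4 are at 381 and 378, below every heterozygous array, and on the other probe sets above the filter the lines of the genotypes are level, at 103 and 103 and at 67.8 and 68.1.

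Across the 6 arrays, the genes with the values most like those of Slc4a4 were Kcnj13, Gdf5, Egfl8, Esrrg and Macir. Likeness was the root mean square distance between log2 values, each centred on its gene's mean, and it ran from 0.11 for Kcnj13 to 0.17 for Macir. Kcnj13, an inward rectifier potassium channel, read 798, 1146 and 717 in heterozygous and 429, 440.4 and 847 in knockout samples, a log2 difference of -0.66 (limma adjusted p = 0.409). In both genes replicate 3 was the highest heterozygous array and replicate 6 the highest knockout array. Kcnj13 was a member of the list for intermediate cells and melanocytes, of which 9 of 10 tested genes had lower means in knockout samples, none with an adjusted p under 0.05. The median log2 difference of that list was -0.11, against -0.04 over 12421 genes. The summed signal of that list ran from 40415 to 47137 in heterozygous and from 40757 to 43773 in knockout samples. Its part in the Slc4a4 difference was not tested. In bulk tissue, fewer cells of a type and less RNA per cell cannot be told apart.

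Slc4a10 and Slc4a11 varied far more within a genotype than between them. Slc4a10, a sodium-driven bicarbonate transporter known from choroid plexus and neurons, read 107, 340.5 and 1641 in heterozygous and 235, 284 and 612 in knockout samples. Slc4a11, which belongs to the family by sequence but carries protons and whose loss causes corneal dystrophy with deafness, read 131, 248 and 1381 in heterozygous and 146, 116 and 576 in knockout samples. In both genes heterozygous replicate 5 was the highest of all arrays and knockout replicate 6 the highest of its genotype. The dim second probe set of Slc4a11, below the filter, had the same order at the top, with 65.4 in heterozygous replicate 5 and 34.3 in knockout replicate 6, and at most 13.2 elsewhere.

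The spread set these genes apart from nearly all others. The within-genotype SD was 1.42 for Slc4a10 and 1.45 for Slc4a11 on the log2 scale, against a median of 0.21 over 12421 genes, and 99.9% of genes had a smaller one than either. Heterozygous replicate 5 exceeded the mean of the other two heterozygous arrays by 2.99 for Slc4a10 and 2.83 for Slc4a11 on the log2 scale. The log2 differences between genotypes were -0.21 (95% interval -1.92 to 1.503) and -0.70 (95% interval -2.45 to 1.05), with limma adjusted p of 0.938 and 0.770. Without heterozygous replicate 5 they turned to 0.79 and 0.24, and without heterozygous replicate 1 they were -1.09 and -1.38. No direction could be given for either.

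Markers of cells outside the stria proper shared the highest array with these genes in part. The 6 tested genes of the root, spindle and outer sulcus list, all 6 of those listed, summed to 11675, 13420 and 19389 in heterozygous replicates 1, 3 and 5 and to 10013, 12752 and 12509 in knockout replicates 2, 4 and 6. Slc26a4 belongs to that list, as does Epyc, a matrix proteoglycan, which read 4332, 6598 and 10405 in heterozygous and 1802, 4576 and 4505 in knockout samples. Anxa1 of the same list went the other way, with every knockout sample above every heterozygous one. It read 6560, 6015 and 6893 in heterozygous and 7543, 7482 and 7313 in knockout samples. The 4 tested of 6 neuron genes summed to 522, 426 and 711 in heterozygous and 264, 418 and 363 in knockout samples, while Nefl and Nefm did not pass the filter. The 8 tested of 9 fibrocyte genes summed to 24233, 27260 and 34975 in heterozygous and 28993, 28871 and 31765 in knockout samples. The sums of all 3 lists were highest in heterozygous replicate 5. Among knockout arrays the root and neuron sums were highest in replicate 4, which was not so for each list's median deviation from the heterozygous means. By that median, knockout replicate 6 was the highest knockout array, at -0.24 for root and -0.30 for neuron genes on the log2 scale. Knockout replicate 4 had -0.39 and -0.55. The fibrocyte list had medians of -0.43, -0.06 and 0.27 in heterozygous and of 0.03, -0.66 and 0.24 in knockout samples. For neuron genes heterozygous replicate 1 then stood above replicate 5, at 0.09 against 0.07. Among the neuron genes Snap25 and Prph were highest in heterozygous replicate 5, and Tubb3 and Syt1 in heterozygous replicate 1, with 95.8 and 143 against 54.4 and 106. The part of these cells in the values of Slc4a10 and Slc4a11 was not tested.

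The same closeness measure was applied to Slc4a10 and Slc4a11 after their values had been seen. Each was among the 5 genes most like the other, at a distance of 0.45. Slc4a10 was closest to Smpx, a small muscle protein also needed for hearing, which read 201 in heterozygous replicate 5 and 5.28 to 44.0 on the other arrays. Slc4a11 was closest to Snap25, a protein of vesicle fusion, with 212 in heterozygous replicate 5 and 14.1 to 47.3 elsewhere, and next to Lox, the lysyl oxidase that cross-links collagen. Lox read 3503 in heterozygous replicate 5 and 499 to 1251 elsewhere. Smpx and Snap25, with mean signals of 57.0 and 56.2, passed the filter limit of 46.3 only through heterozygous replicate 5. Their closeness to genes that peak on that array is therefore in part set by the filter.

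**Figure D3:**
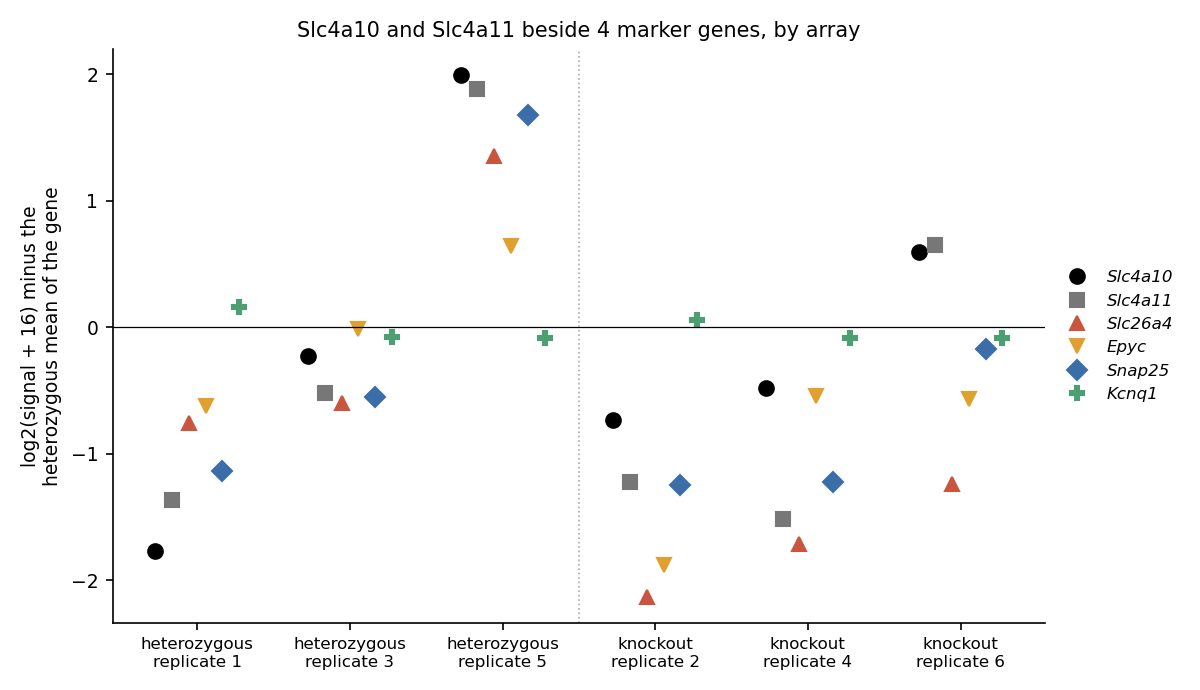
Deviation of log2(signal + 16) from each gene's heterozygous mean (vertical axis, log2 units) on the 6 arrays, for Slc4a10, Slc4a11, Slc26a4, Epyc, Snap25 and Kcnq1. All except Kcnq1 (a potassium channel of marginal cells) are highest in heterozygous replicate 5. Snap25 passed the filter on dim signals only through that array.

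The sodium-proton exchanger among the members was measured tightly. Slc9a2, or NHE2, takes up sodium in exchange for protons in epithelia. It read 2187, 2141 and 1934 in heterozygous and 1900, 1996 and 2114 in knockout samples, with means of 2087 ± 135 and 2003 ± 108 (SD, n = 3 each). The groups overlapped. The log2 difference was -0.06 with a 95% interval from -0.32 to 0.20, and 6.75% of genes had a smaller spread within genotypes.

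The lactate carriers were Slc16a1 and Slc16a3. Slc16a1, or MCT1, takes up or releases lactate with a proton. Its brighter probe set read 4946, 4266 and 3887 in heterozygous and 5083, 4816 and 4961 in knockout samples. The groups overlapped only through heterozygous replicate 1. The means were 4366 ± 537 and 4953 ± 134 (SD, n = 3 each), with a log2 difference of 0.19 ± 0.10 (SE, limma adjusted p = 0.514). That difference was -0.01 under median centring, a scaling that moved the median of all tested probe sets to -0.20.

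The dimmer probe set of Slc16a1 read 186, 175 and 143 in heterozygous and 235, 428 and 190.3 in knockout samples. Its groups did not overlap, and knockout replicate 4 was the highest array. The log2 difference was 0.63 ± 0.29 (SE, limma adjusted p = 0.442, exact two-sided permutation p = 0.1) and 0.31 without knockout replicate 4. Slc16a3, or MCT4, is the lactate exporter of glycolytic cells. It read 50.05, 39.2 and 55.1 in heterozygous and 45.7, 36.2 and 52.0 in knockout samples, with a mean of 46.4 just above the filter limit of 46.3. Its log2 difference of -0.08 (95% interval -0.66 to 0.50) was measured close to that limit.

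Knockout replicate 4 was also the array on which probe sets without a gene symbol stood highest. Over 3560 such tested probe sets its median deviation from the heterozygous mean was 1.02 on the log2 scale, against 0.30 in knockout replicate 2 and 0.23 in knockout replicate 6. Over the 22859 tested probe sets with 1 symbol that array had a median of -0.09. In the same array Slc4a3 lay 0.46 and the dimmer Slc16a1 probe set 0.96 above the mean of the other knockout arrays on the log2 scale. Its part in the higher values of these probe sets was not tested.

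**Figure D4:**
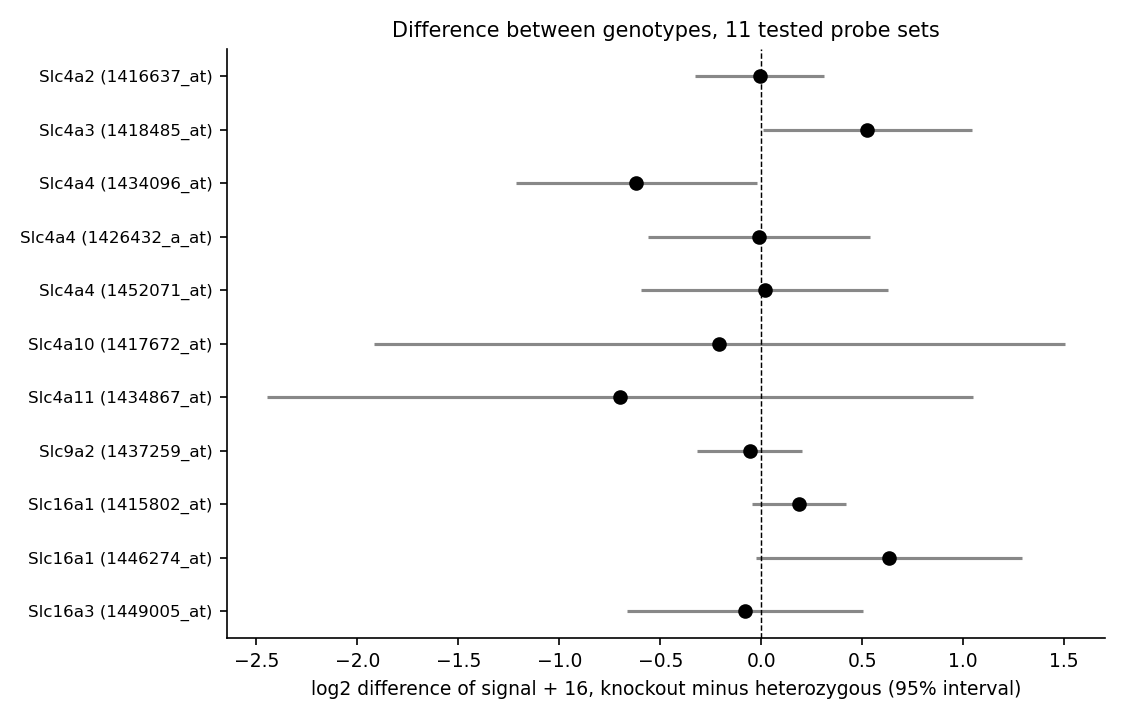
Log2 difference of signal + 16, knockout minus heterozygous (horizontal axis), of the 11 tested member probe sets, with 95% intervals from limma over 6 arrays. The intervals are narrowest for the brighter Slc16a1 probe set and Slc9a2 and widest for Slc4a11 and Slc4a10, and those of Slc4a3 (0.0066 to 1.04) and Slc4a4 (-1.22 to -0.02) are the ones that leave out 0 before adjustment.

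The rest of the acid-base pathway was read from 6 lists of 72 related genes, of which 66 had a named probe set and 45 were tested. By the brightest tested probe set of each gene, none passed the adjusted limma threshold, and at an unadjusted limma p under 0.05 there were 2 higher and 2 lower. Over all 12421 genes that p was reached by 3.21% on the higher and 3.23% on the lower side. Means were higher for 20 and lower for 25 genes, with a median log2 difference of -0.03. Dimmer tested probe sets of Pdk1, Hif1a and Stk39 on the higher side, and of Slc9a3r1 and Slc26a2 on the lower, also reached that unadjusted p. None of them passed after adjustment.

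In the list of other Slc16 carriers and their chaperones 9 of 14 genes were tested. Slc16a7, or MCT2, a carrier with high affinity for lactate and pyruvate, read 479, 575 and 425 in heterozygous and 265, 171 and 291 in knockout samples. Every knockout sample lay below every heterozygous one. The log2 difference was -0.999 ± 0.238 (SE, limma adjusted p = 0.371), and it ranged from -1.20 to -0.78 over 19 alternatives. Knockout replicate 4, the lowest array for Slc16a7, was also the lowest for the summed signals of the endothelial and the pericyte and smooth muscle lists. In knockout replicates 2 and 6 the endothelial sums were 5574 and 8461, within the heterozygous range of 5303 to 8972. The part of these cells in the Slc16a7 difference was not tested. Embigin (Emb), the chaperone of Slc16a7, read 302, 561 and 1659 against 193, 379 and 384. Its log2 difference of -1.07 (limma adjusted p = 0.455) was -0.42 without heterozygous replicate 5. Basigin (Bsg), the chaperone of Slc16a1 and Slc16a3, had a log2 difference of 0.05 (95% interval -0.20 to 0.30), which was -0.15 under median centring. It was named after its values were seen. Slc16a4 read 367, 287 and 284 in heterozygous and 508, 1079 and 329 in knockout samples, a log2 difference of 0.84 (limma adjusted p = 0.416) that was 0.38 without knockout replicate 4. Its other tested probe set gave -0.02.

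Of the other Slc4 genes, only Slc4a1, the band 3 exchanger of red cells, was tested, while Slc4a5, Slc4a8 and Slc4a9 did not pass the filter. Slc4a1 differed by -0.54 on the log2 scale (limma adjusted p = 0.527). Without heterozygous replicate 5 that was -0.27. The erythrocyte list, to which it also belongs, had 2 of 8 genes tested, with sums of 126, 136 and 314 in heterozygous and 74.0, 111.3 and 165 in knockout samples, and its part in the Slc4a1 value was not tested. Of 13 other Slc9 genes and partners 6 were tested, 2 with higher and 4 with lower means. The smallest p-values there belonged to Slc9a3r1, a scaffold for proton exchangers, at -0.23 (limma adjusted p = 0.568), and Slc9a8, an exchanger of the Golgi, at 0.39 (limma adjusted p = 0.583), followed by Slc9a9 of endosomes at -0.26 (limma adjusted p = 0.736). Slc9a3r1 was at -0.0899 without knockout replicate 2, Slc9a9 at -0.0068 without heterozygous replicate 5 and Slc9a8 at 0.19 under median centring.

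Of the 16 genes of the Slc26 and exchange partner list 11 were tested, 6 with higher and 5 with lower means. Slc26a2, the sulfate carrier of cartilage, read 1419, 1540.4 and 1406 in heterozygous and 932, 1084 and 1377 in knockout samples, a log2 difference of -0.38 (limma adjusted p = 0.419). Its groups did not overlap. Wnk4 and Oxsr1, kinases that act on chloride transporters, differed by 0.30 and 0.16 on the log2 scale, with adjusted p of 0.454 and 0.647 in limma, and by 0.10 and -0.04 under median centring. Most carbonic anhydrases make bicarbonate from carbon dioxide. Of the 10 tested genes of that family 4 had higher and 6 lower means. Car3, which was also in the fibrocyte list, had a log2 difference of 0.21 (limma adjusted p = 0.374), which was 0.0083 under median centring. Car7 differed by -0.95 on the log2 scale and Car13 by -0.16, with adjusted p of 0.487 and 0.737 in limma. Car7 was at -0.43 without knockout replicate 4 and -1.47 without knockout replicate 6, and Car13 at -0.0267 without knockout replicate 6. Among 8 tested genes of lactate and pyruvate handling, 5 had higher and 3 lower means, with a median log2 difference of 0.04. The smallest p-values there belonged to Pdk1 and Pdk4, kinases that slow the entry of pyruvate into the citric acid cycle, at 0.28 and 0.30, and to Hif1a, the oxygen-sensing factor, at 0.15 (limma adjusted p = 0.431, 0.457 and 0.571). Under median centring these were 0.0811, 0.10 and -0.0534. Dimmer tested probe sets gave 0.15, 0.18 and 1.29 for Pdk1 and 0.09, -0.05 and 0.92 for Hif1a.

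**Figure D5:**
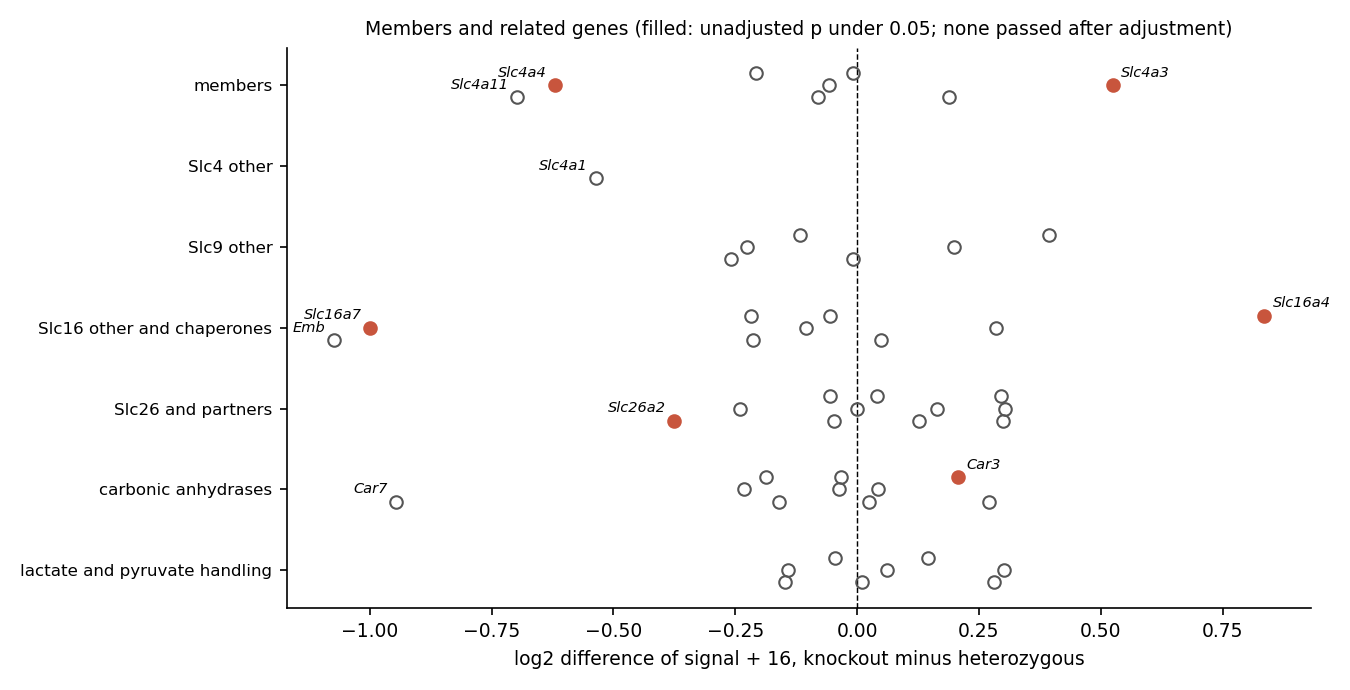
Log2 difference of signal + 16, knockout minus heterozygous (horizontal axis), of the brightest tested probe set of each member and of the genes of 6 related lists (rows), with vertical position within a row only to separate points. Filled points had an unadjusted limma p under 0.05 and open points did not. They are Slc4a3 and Slc4a4 among the members, and Slc16a7, Slc16a4, Slc26a2 and Car3 among the related genes.

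Strial markers were present on these arrays, beside those of neighbouring tissue. All 7 marginal cell genes with a named probe set and all 6 basal cell genes passed the filter, and so did 10 of 11 intermediate cell genes, Tyrp1 being the exception. All 6 root, spindle and outer sulcus genes, 8 of 9 fibrocyte genes, all 8 macrophage genes and 9 of 11 bone genes with a named probe set passed too, against 1 of 5 hair cell genes. Endothelial genes summed to 2698 in knockout replicate 4 and to between 5303 and 8972 in the other arrays, so that array stood apart. Each array's mean signal after trimming 2% at either end was 500.002, and their number limits the precision of every value.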

How the data were processed

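RNA was labelled with the NuGEN Ovation protocol and hybridised to Affymetrix mouse expression arrays, per the labels' protocols. The deposited values are an intensity for each probe set, the signal that GCOS gives in linear units, per the submitters' processing notes; its version is not given in the sources used here. All arrays had the same trimmed mean in the deposited values. A genome build does not enter these values.

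Genotype and replicate came from the sample titles. The 64 control probe sets were left out, signals were taken as log2(signal + 16), and probe sets under the 40th percentile of the mean signal were removed. A linear model for each remaining probe set came from lmFit and trended eBayes (limma 3.58.1 under R 4.3.3), two-sided, with Benjamini-Hochberg adjustment over 27022 probe sets. The fit was tested on simulated data. The brightest tested probe set stood for a gene. The offset understates changes of dim genes.

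The text names all members, Slc26a4, up to 3 genes per related list and 2 per marker list by smallest p, and the 5 genes most like the member with the smallest p. Other genes were named after their values were seen. Members and lists were chosen with earlier results of these data known. Of the probe sets without controls, 34945 had 1 symbol, 932 several and 9160 none. Alternatives were other offsets, a floor, scalings, filters, variance models, array weights, ways to join probe sets, and leaving out each array. Figures used matplotlib 3.10.9 in Python 3.11.15.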

Additional observations from a re-analysis of the deposited data

How the results depend on the processing

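No member probe set was called under any of 20 alternatives, and their lowest limma adjusted p was 0.148. Of 155 single-gene values for the 8 member genes, 144 kept their direction and 11 turned. Slc4a2 was 0.0385 with quantile normalisation, 0.0321 with cyclic loess normalisation and 0.0902 with array weights, and Slc16a1 was -0.0114 with median centring. When each array was left out in turn, Slc4a2 ranged from -0.0971 to 0.0745, Slc4a10 from -1.09 to 0.79, Slc4a11 from -1.38 to 0.24 and Slc16a3 from -0.19 to 0.0230. The median log2 difference of the member genes was -0.27 with median centring, and with single arrays left out it ran from -0.13 to 0.11, the highest without heterozygous replicate 5.

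The number of probe sets called in all was 1. It was 4 with a floor of 32, 3 with quantile normalisation, 2 with cyclic loess normalisation, 3 with median centring, 0 with no filter, 0 with a 60th percentile filter, 23 with array weights, 11 with 1 probe set per gene and 3 with the mean of probe sets per gene. Leaving out single arrays gave 0 to 13, with 13 without knockout replicate 4, 2 without heterozygous replicate 1 and 0 without heterozygous replicate 5 or knockout replicates 2 or 6 (1702, 3283 and 5270 at an unadjusted p under 0.05 in limma). The causes were not tested. With no filter 4301 probe sets had an unadjusted p under 0.05, and with the 60th percentile filter 1588. The filter on the mean log2 signal was chosen after seeing the data and called 1. No paired analysis was made, because the labels name no pairs of samples and the genotypes share no replicate numbers. With 3 arrays per genotype an exact permutation p cannot go below 0.1. Slc16a3 lay so close to the filter limit that its probe set was tested in 15 of the alternatives fitted to single probe sets. It was also tested with the mean of probe sets per gene.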
